A study of Homo sapiens with 9 samples.

Results

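The 9 genes described here act in bile acid synthesis and in the signal that restrains it: the enzyme genes AKR1D1, AKR1C4, HSD3B7, ACOX2, AMACR and BAAT, the receptor genes FGFR4 and KLB, and the ligand gene FGF19. They were chosen by name, with earlier results of these data known, as were the related lists below. Counts of called genes set beside the share over all tested genes are therefore descriptive. A gene was measured through the probe sets that the platform annotation pairs with it alone, by the brightest where there were several, and 8 of the 9 had at least 1. HSD3B7, which oxidises the sterol ring after its first hydroxylation, had no such probe set, and its level was not analysed here. Of the 8, 7 passed a filter on dim probe sets (a signal above the array's median in at least 3 of 9 arrays) and were tested among 13056 genes. FGF19 did not pass.

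The arrays come from HepG2, a line of human hepatocellular carcinoma cells, and RNA of these cultured cells was labelled from an oligo(dT) primer. There are 3 groups of 3 arrays. The groups knockdown1 and knockdown2 are both siRNA double knockdowns of HNF4alpha with HNF4gamma, 2 related nuclear receptors of liver cells, and the third group is their control. What sets knockdown1 apart from knockdown2, what the control cells received, how long the treatment lasted and whether replicates were separate cultures is not given in the labels. The p-values therefore measure only how far these arrays scatter, which may be technical, and 3 arrays per group limit the precision. HepG2 is 1 transformed line, so the values describe that line and not hepatocytes in the liver.

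Bile acids are made from cholesterol in hepatocytes. Enzymes first hydroxylate and reshape the sterol ring, in which HSD3B7, AKR1D1 and the AKR1C family act in turn. The side chain is then oxidised and shortened in peroxisomes, with AMACR turning its intermediates to the form that the oxidase ACOX2 accepts, and BAAT joins the finished acid to glycine or taurine. In the intestine bile acids induce FGF19, a hormone that travels to the liver and binds FGFR4 together with its co-receptor beta-Klotho, the product of KLB. That signal represses bile acid synthesis.

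The genes whose level fell were AKR1D1, ACOX2, FGFR4 and KLB, and RefSeq promoters (GRCh38.p14) were found for 3 of them. Among all 9 genes, 7 matched the RefSeq table, and ACOX2 and FGF19 did not. The 250 bases before each annotated start are shown 5′ to 3′ for the 3 genes, because each was called lower in both knockdowns. Whether they are controlled together was not tested. They are AKR1D1 at chr7:138076209-138076458, KLB at chr4:39406680-39406929, and FGFR4, which has 2 entries, at chr5:177086665-177086914 and chr5:177089300-177089549, all on the plus strand. Capitals mark matches to 3 short motifs.
AKR1D1: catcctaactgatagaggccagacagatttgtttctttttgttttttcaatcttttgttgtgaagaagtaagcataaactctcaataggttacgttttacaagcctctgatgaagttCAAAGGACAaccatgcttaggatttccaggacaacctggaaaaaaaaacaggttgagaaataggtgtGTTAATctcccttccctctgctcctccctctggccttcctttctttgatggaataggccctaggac
KLB: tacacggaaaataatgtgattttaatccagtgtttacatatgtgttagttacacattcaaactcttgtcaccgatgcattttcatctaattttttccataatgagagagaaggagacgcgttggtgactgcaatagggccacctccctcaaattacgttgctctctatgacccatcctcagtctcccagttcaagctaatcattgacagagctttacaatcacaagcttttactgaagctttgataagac
FGFR4, first start: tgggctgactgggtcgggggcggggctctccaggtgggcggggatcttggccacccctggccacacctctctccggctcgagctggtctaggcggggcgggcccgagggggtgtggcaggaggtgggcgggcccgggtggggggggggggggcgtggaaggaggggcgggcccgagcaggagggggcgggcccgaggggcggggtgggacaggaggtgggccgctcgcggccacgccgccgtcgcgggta
FGFR4, second start: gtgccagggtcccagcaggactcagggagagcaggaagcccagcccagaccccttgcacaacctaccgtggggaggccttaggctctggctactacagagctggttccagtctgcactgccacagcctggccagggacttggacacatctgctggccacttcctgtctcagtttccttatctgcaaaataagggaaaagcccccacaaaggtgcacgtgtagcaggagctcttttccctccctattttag

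The motifs, searched on both strands, were CAAAGNNCA, a core of the repeat bound by HNF4, AGGTCA, the nuclear receptor half-site, and GTTAAT, a half-site of the HNF1 family. A stretch can hold CAAAGNNCA and AGGTCA at once, as in their shared bases. AKR1D1 held CAAAGNNCA as CAAAGGACA, 133 to 125 bases before its start, and GTTAAT 66 to 61 bases before it. Neither motif was matched in the other promoters of the set. BAAT held AGGTCA on its minus strand, 41 to 36 bases before one of its 2 starts, and HSD3B7 held it 225 to 220 and 207 to 202 bases before its start. Among 35116 promoters of the same length, 4.44% held CAAAGNNCA, 12.1% AGGTCA and 6.23% GTTAAT. A match says only that these letters are there, and KLB and FGFR4 showed none of them within 250 bases.

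The signals are relative brightness values scaled so that every array has a median of 14.1. Differences are between means of log2(signal + 1.41), and a gene was called when its limma p-value, adjusted over the 13056 genes by the Benjamini-Hochberg method, was under 0.05. Both knockdowns are compared with the same 3 control arrays, so their values are given side by side and do not support each other. HNF4G, the targeted gene of HNF4gamma, had a log2 difference from control of -1.28 in knockdown1 (SE 0.28, limma's adjusted p = 5.38e-04), and HNF4A was not analysed here. In knockdown2 its difference was -0.56 (SE 0.28, limma's adjusted p = 0.142), and a dimmer HNF4G probe set gave -2.20 and -2.48 in turn (SE 0.72 for each, limma's adjusted p = 0.0258 and 0.0148 over 24565 probe sets). Of 14 hepatocyte markers, all were above the array median in at least 3 arrays, and their summed signal ran from 47210.1 to 56682 in control, 40448 to 48951 in knockdown1 and 45078 to 48589 in knockdown2. Of these markers 5 were called lower in knockdown1 and 4 in knockdown2, and 0 higher in either, with ASGR1, a liver glycoprotein receptor gene, at -1.71 and -2.51, and their part in the results was not tested. Over all tested genes the shares called lower were 19.0% and 13.9% in turn. On arrays of whole cultures, fewer cells of a kind and less RNA per cell cannot be told apart.

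Compared with control, 4 of the 7 tested genes were called lower in knockdown1 and none higher, while 19.0% of all tested genes were called lower and 33.3% in either direction. The 4 were ACOX2, AKR1D1, KLB and FGFR4. In knockdown2, 4 of 7 were again called lower and none higher, against 13.9% of all tested genes called lower and 27.6% in either direction, and they were AKR1D1, ACOX2, KLB and FGFR4. The median difference of the 7 genes was -0.68 in knockdown1 and -0.73 in knockdown2, where the medians of all tested genes were -0.01 and 0.01. In each comparison with control all 3 knockdown arrays lay below all 3 controls for these 4 genes, as for 21.7% of all tested genes in knockdown1 and 19.8% in knockdown2. All 3 lay above the controls for BAAT in knockdown1, as for 18.1% of all tested genes, and for 0 of the 7 in knockdown2, against 19.9%.

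How the calls over all tested genes divide depends on the scaling: 57.1% of those in knockdown1 were lower, while the share was 45.8% without any rescaling, 46.3% once arrays were quantile normalized and 48.9% once they were centred on the tested genes. The 4 genes were called lower under each of these scalings in both knockdowns. The 3 tested genes not called in either comparison, BAAT, AKR1C4 and AMACR, lay close to the array median, where MAS5 values scatter. With so dim a signal their wide intervals do not show that they stayed level.

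**Figure D1:**
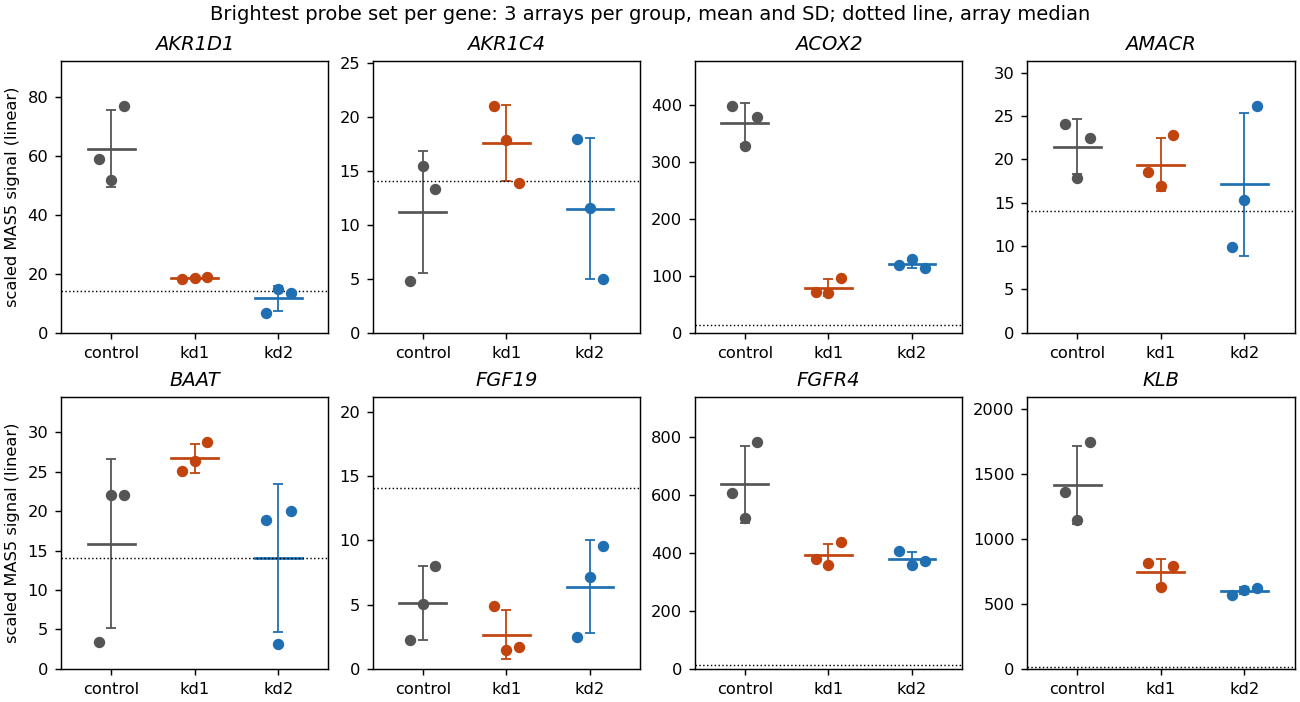
Scaled MAS5 signal (linear axis from 0) of the brightest probe set of 8 genes, with 1 point per array, a bar for the mean and whiskers for the SD of 3 arrays; kd1 and kd2 are knockdown1 and knockdown2, and the dotted line is the array median of 14.1. ACOX2, AKR1D1, FGFR4 and KLB show every knockdown array below every control array, while AKR1C4, AMACR, BAAT and FGF19 lie near or below the dotted line.

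AKR1D1 encodes the 5-beta-reductase that bends the sterol ring of bile acids, and it fell in both knockdowns. Its signal was 59.0, 51.6 and 76.7 in the control arrays of replicates 1, 2 and 3, 18.2, 18.7 and 18.8 in knockdown1, and 6.64, 14.8 and 13.5 in knockdown2. All 6 knockdown arrays lay below all 3 controls, and those of knockdown1 agreed to within a unit. The log2 difference from control was -1.66 in knockdown1 (SE 0.32, limma's adjusted p = 1.69e-04) and -2.34 in knockdown2 (SE 0.32, limma's adjusted p = 2.26e-06). In knockdown2, 0.590% of all tested genes had a lower value. The knockdown1 signals lie near the array median, and those of knockdown2 at or under it except for 1 array. The size of both falls thus depends on the pseudocount. With a pseudocount equal to the array median they were -1.21 in knockdown1 and -1.57 in knockdown2. Between the knockdowns the 3 arrays of knockdown1 were above the 3 of knockdown2, with a difference of 0.68 (95% interval 0.02 to 1.34) that missed the threshold (limma's adjusted p = 0.125).

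AKR1C4 encodes the reductase that acts after AKR1D1 on the ring's keto group. Its control signals were 4.80, 15.5 and 13.3, its knockdown1 signals 21.0, 17.9 and 13.9, and its knockdown2 signals 18.0, 11.6 and 4.95. The 3 groups overlapped. The differences were 0.70 in knockdown1 (95% interval -0.40 to 1.80, limma's adjusted p = 0.347) and 0.02 in knockdown2 (95% interval -1.08 to 1.12, limma's adjusted p = 0.984). AKR1C4 belongs to one gene family with AKR1C1, AKR1C2 and AKR1C3, and whether its probes also take up their transcripts was not tested. None of those 3 relatives was called in either knockdown, with differences from control between -0.24 and 0.24.

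ACOX2, the peroxisomal oxidase of the bile acid side chain, fell most in knockdown1. Its control signals were 397, 327 and 378, against 71.8, 70.0 and 96.2 in knockdown1 and 119, 129.6 and 114 in knockdown2. The 3 groups were fully separate, with knockdown1 lowest, knockdown2 next and control highest. The difference from control was -2.20 in knockdown1 (SE 0.16, limma's adjusted p = 1.29e-11), a 4.60-fold lower level, and -1.59 in knockdown2 (SE 0.16, limma's adjusted p = 1.23e-08), a 3.01-fold lower level. ACOX2 was also lower in knockdown1 than in knockdown2 by a direct test (-0.61, 95% interval -0.94 to -0.28, SE 0.16, limma's adjusted p = 0.00484), and it was the 1 gene of the 7 called between the knockdowns, where 26.6% of all tested genes were called, 16.1% as lower in knockdown1 and 10.5% as higher. The calls over all genes were 60.6% lower here, against 42.9%, 43.9% and 52.9% under the other 3 scalings, and ACOX2 was called lower under each. Its arrays did not overlap, as those of 24.8% of all tested genes lay all lower in knockdown1. Those of AKR1D1, BAAT and KLB lay all higher, as did those of 18.9%.

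AMACR, the racemase that prepares the side chain for ACOX2, had 3 probe sets of its own and 3 more that the annotation pairs also with a read-through transcript, which were not used. The brightest of its own gave 24.1, 17.9 and 22.4 in control, 18.5, 16.9 and 22.8 in knockdown1, and 9.95, 15.3 and 26.1 in knockdown2. The groups overlapped, and knockdown2 arrays spread the most. The differences were -0.14 (95% interval -0.91 to 0.63, limma's adjusted p = 0.819) and -0.39 (95% interval -1.16 to 0.38, limma's adjusted p = 0.502). A second probe set gave -0.33 and -0.45 (limma's adjusted p = 0.584 and 0.471 over all probe sets), and the third did not pass the filter.

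BAAT, the enzyme gene of the last step, was measured by 1 dim probe set. Its control signals were 3.47, 22.1 and 22.0, its knockdown1 signals 25.1, 26.3 and 28.7, and its knockdown2 signals 18.9, 3.21 and 20.0. The knockdown1 arrays lay above all others, and 1 control and 1 knockdown2 array lay far below their groups. The difference in knockdown1 was 1.01 (95% interval -0.14 to 2.17, SE 0.56) and was not called (limma's adjusted p = 0.177), although a fit of the 6 arrays of knockdown1 and control alone called it (limma's adjusted p = 0.0411). In knockdown2 it was -0.14 (95% interval -1.29 to 1.01, limma's adjusted p = 0.890), and between the knockdowns 1.15 (95% interval 0.00 to 2.31, limma's adjusted p = 0.137). Without control replicate 1, the low array, the knockdown1 difference was 0.26 (limma's adjusted p = 0.754).

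**Figure D2:**
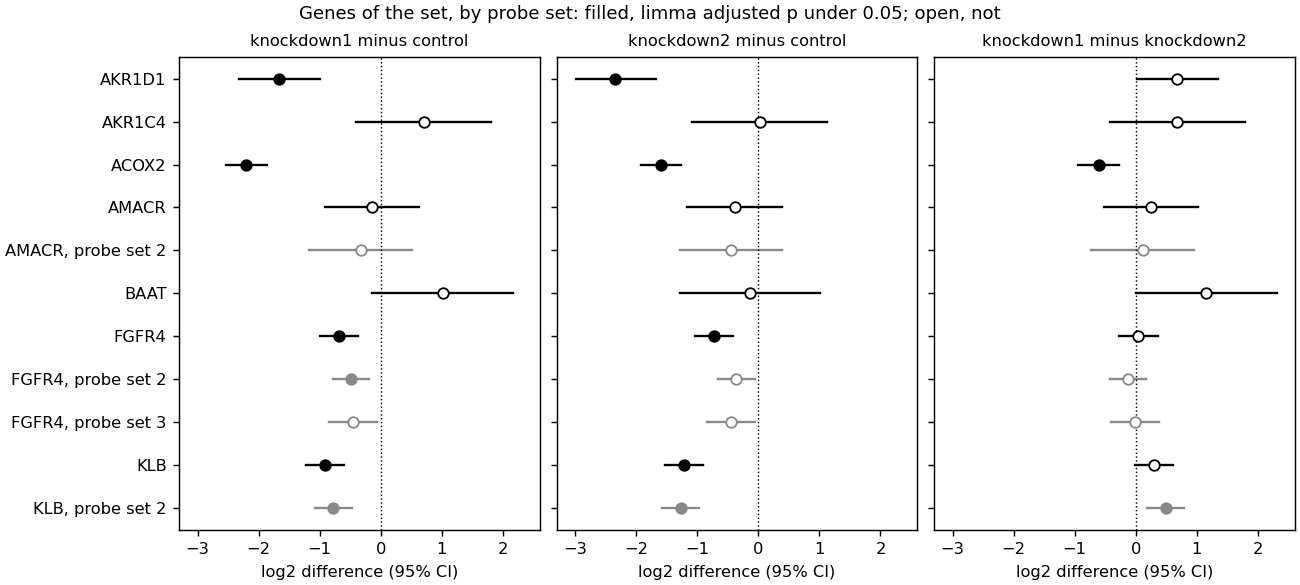
Log2 difference (horizontal axis) with its 95% interval for each probe set that passed the filter, in 3 comparisons; filled points passed limma's adjusted p of 0.05 and open points did not, black for the brightest probe set (adjusted over genes) and grey for further ones (adjusted over probe sets). AKR1D1, ACOX2, FGFR4 and KLB lie left of 0 against control, and ACOX2 and the second KLB probe set are the filled points between the knockdowns.

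FGF19, the ligand, stayed under the array median on all 9 arrays. It gave 2.25, 5.06 and 8.02 in control, 4.89, 1.44 and 1.67 in knockdown1, and 2.49, 7.15 and 9.58 in knockdown2, and the groups overlapped. Without the filter, among 19775 genes, its differences were -0.67 in knockdown1 (SE 0.55, limma's adjusted p = 0.480) and 0.24 in knockdown2 (SE 0.55, limma's adjusted p = 0.857). At this signal a change was not detectable.

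FGFR4, the receptor gene, fell in both knockdowns. Its brightest probe set gave 609, 521 and 782 in control, 379, 360.2 and 437 in knockdown1, and 407, 358 and 373 in knockdown2. The knockdown arrays all lay below the controls and overlapped with each other. The difference was -0.68 in knockdown1 (SE 0.15, limma's adjusted p = 8.84e-04), a 1.61-fold lower level, and -0.73 in knockdown2 (SE 0.15, limma's adjusted p = 6.22e-04), a 1.66-fold lower level. The knockdowns differed by 0.04, with an interval of -0.27 to 0.36.

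Of 3 further FGFR4 probe sets, 2 passed the filter. The next brightest gave control signals of 139 to 151, knockdown1 signals of 96.3 to 111 and knockdown2 signals of 109 to 119.6, and its control arrays lay above all others. Its difference was -0.49 in knockdown1 (SE 0.15, limma's adjusted p = 0.0138 over all probe sets) and -0.36 in knockdown2, which missed the threshold (SE 0.15, limma's adjusted p = 0.0758). The third gave -0.46 and -0.45 and was called in neither (limma's adjusted p = 0.0710 and 0.0864). Taken singly, only the brightest FGFR4 probe set was thus called in knockdown2. The mean of the probe sets was called there too (-0.51, limma's adjusted p = 0.00669), and every probe set that passed gave a negative value.

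KLB, the co-receptor gene, fell in both knockdowns. Its brighter probe set gave 1359, 1148 and 1743 in control, 813, 629.7 and 793 in knockdown1, and 571, 605 and 625 in knockdown2. Controls were above all knockdown arrays, and knockdown1 was above knockdown2 throughout, by a narrow margin for the lowest knockdown1 array. The difference was -0.91 in knockdown1 (SE 0.15, limma's adjusted p = 2.36e-05), a 1.88-fold lower level, and -1.22 in knockdown2 (SE 0.15, limma's adjusted p = 5.01e-07), a 2.32-fold lower level. Whether KLB and FGFR4 differ in their fall was not tested.

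A second KLB probe set gave 392 to 496 in control, 237 to 280.0 in knockdown1 and 169.9 to 199 in knockdown2, with no overlap between the 3 groups. It gave -0.78 in knockdown1 (SE 0.14, limma's adjusted p = 2.66e-04) and -1.27 in knockdown2 (SE 0.14, limma's adjusted p = 1.39e-06). Between the knockdowns it was called higher in knockdown1 (0.49, SE 0.14, limma's adjusted p = 0.0157 over all probe sets). The brighter probe set gave 0.30 for the same comparison (95% interval -0.01 to 0.61, limma's adjusted p = 0.152). With the values as deposited it was called too (0.42, limma's adjusted p = 0.00182), as it was after quantile normalization (0.46, limma's adjusted p = 7.95e-04).

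Other enzymes of bile acid synthesis and handling were read from a list of 15 genes, of which 9 were tested. In knockdown1 7 were lower and 1 higher, and in knockdown2 6 were lower and 1 higher, with medians of -1.16 and -1.36. Over all tested genes the shares called lower were 19.0% and 13.9% in turn, and those called higher 14.3% and 13.7%. CYP27A1, which hydroxylates the side chain in mitochondria, fell in both knockdowns (-1.62 and -1.60, SE 0.14 for each, limma's adjusted p = 7.14e-10 and 1.58e-09). ACAA1, a peroxisomal thiolase, also fell in both (-0.61 and -2.19, SE 0.16 for each, limma's adjusted p = 0.00309 and 2.12e-11). A further ACAA1 probe set gave -0.51 and -1.11 in turn, both called, so the size of the knockdown2 fall differs between probe sets. SCP2, another thiolase of the list, had no probe set annotated to it alone. SULT2A1, counted in the list although it sulfates bile acids and does not make them, fell in both (-3.68 and -3.56, SE 0.26 for each). CYP39A1, an oxysterol hydroxylase, rose in both (1.04 and 0.63, SE 0.15 for each, limma's adjusted p = 3.15e-06 and 0.00187). CYP7A1, the rate-limiting enzyme of the classical pathway and the main target of FGF19 signalling, stayed under the array median on all 9 arrays, with no signal above 5.05, so it was not tested.

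Among 9 tested genes of bile acid transport, 4 were lower and 0 higher in each comparison with control, where 19.0% and 13.9% of all tested genes were called lower in turn. With 3 other scalings 5 were lower in knockdown2. SLC51B, a subunit of the basolateral bile acid exporter, fell in both knockdowns (-1.45 and -0.76, SE 0.16 for each, limma's adjusted p = 3.94e-08 and 6.28e-04). So did ABCB4, the phospholipid exporter of the bile canaliculus (-0.64 and -0.94, SE 0.18 for each, limma's adjusted p = 0.00624 and 1.81e-04), and ABCG8, part of a sterol exporter (-1.83 and -2.60, SE 0.44 for each, limma's adjusted p = 0.00173 and 4.41e-05). A further ABCB4 probe set gave -0.62 and -1.18 in turn, neither called. The mean ABCG8 signals in the knockdowns, 12.4 and 6.86, lay under the array median, so the size of its fall depends on the pseudocount. The canalicular bile salt pump gene ABCB11 did not exceed 9.71 and was not tested.

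In the list of bile acid sensing and repression, 5 of 9 tested genes were lower and 1 higher in knockdown1, and 6 were lower and 2 higher in knockdown2. The shares over all tested genes were 19.0% and 13.9% lower in turn, and 14.3% and 13.7% higher. The bile acid receptor genes NR1H4, NR1I2 and GPBAR1 were not tested. NR1H4 and NR1I2 had no probe set annotated to them alone, and GPBAR1 did not pass the filter. The counts are thus not a reading of these receptors. The largest fall was that of DIO1, an enzyme gene that activates thyroid hormone and encodes no bile acid receptor (-2.46 and -2.71, SE 0.18 for each, limma's adjusted p = 7.97e-12 and 3.15e-12). RXRA, the partner receptor of many nuclear receptors, fell in both (-0.80 and -0.81, SE 0.18 for each, limma's adjusted p = 7.39e-04 and 9.17e-04), as did the vitamin D receptor gene VDR (-0.77 and -1.24, SE 0.28 for each, limma's adjusted p = 0.0324 and 0.00115). A further RXRA probe set gave -0.43 in knockdown1, not called, and -0.77 in knockdown2, called. Further VDR probe sets gave -1.05, -0.61 and -0.56 in knockdown1, none called. In knockdown2 they gave -0.23, -1.35 and -0.01, of which only -1.35 was called. PROX1, which encodes a transcription factor of liver cells, rose in both (1.13 and 1.25, SE 0.15 for each, limma's adjusted p = 9.57e-07 and 3.01e-07). Further PROX1 probe sets gave 0.98, 0.44 and 0.46 in knockdown1, of which only 0.98 was called. In knockdown2 they gave 0.62, 0.52 and 0.37, of which 0.37 was not called. FOXA2, a factor of the liver lineage, rose in knockdown2 (0.47, SE 0.17, limma's adjusted p = 0.0446) with overlapping arrays.

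**Figure D3:**
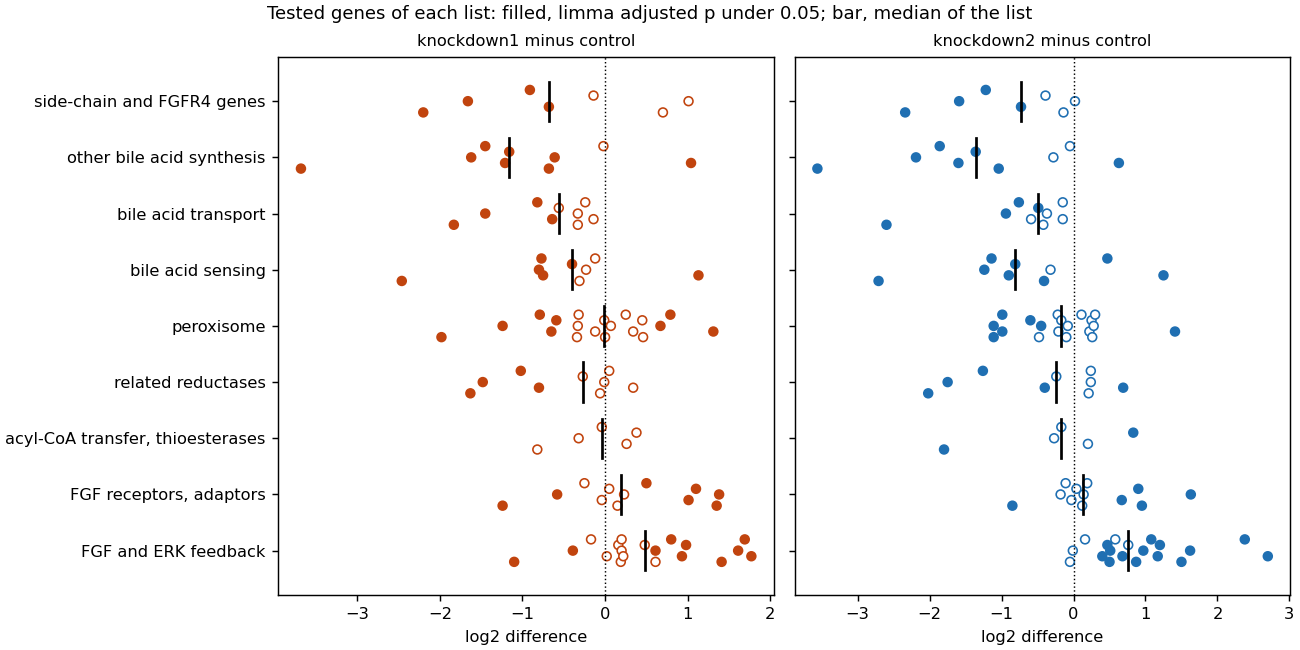
Log2 difference from control (horizontal axis) of every tested gene in the set and in 8 related lists, for knockdown1 and knockdown2; filled points passed limma's adjusted p of 0.05, open points did not, and the bar is each list's median. The bile acid synthesis list has its median at -1.16 and -1.36, and the FGF and ERK feedback list at 0.48 and 0.76.

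Near FGFR4 and KLB in the pathway, 12 receptors and adaptors were tested, with 2 lower and 5 higher in knockdown1 and 1 lower and 4 higher in knockdown2. Of all tested genes 19.0% and 13.9% were called lower in turn, and 14.3% and 13.7% higher. Neither count of lower genes exceeds that share. FGFR1, another FGF receptor that can pair with beta-Klotho, rose in both knockdowns (1.10 and 0.95, SE 0.16 for each, limma's adjusted p = 2.52e-06 and 2.82e-05). Further FGFR1 probe sets gave 0.37 to 1.82 in knockdown1 and 0.31 to 1.36 in knockdown2, not all of them called. PTPN11, a phosphatase that relays receptor signals, rose in both (1.38 and 1.63, SE 0.16 for each, limma's adjusted p = 8.48e-08 and 7.97e-09). GAB1, a docking adaptor, fell in both (-1.24 and -0.85, SE 0.18 for each, limma's adjusted p = 2.65e-06 and 5.14e-04). Further GAB1 probe sets gave -1.57 to -0.13 in knockdown1 and -1.16 to -0.36 in knockdown2, not all of them called. STAT3, a transcription factor of cytokine signals, rose in both (1.35 and 0.67, SE 0.15 for each, limma's adjusted p = 6.22e-08 and 0.00132). Of its further probe sets, 2 were called higher in both (1.07 and 1.40 in knockdown1, 0.56 and 0.57 in knockdown2), while another gave -1.21 in knockdown1 (SE 0.40, limma's adjusted p = 0.0262 over all probe sets). SOS1, an exchange factor that acts on Ras, fell in knockdown1 (-0.58, SE 0.14, limma's adjusted p = 0.00227), where 3 of its further probe sets gave -0.38, -0.61 and -0.37 and another 0.04. In knockdown2 its value was -0.11 (limma's adjusted p = 0.636).

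Of 19 tested feedback and response genes of FGF and ERK signalling, 8 were higher and 2 lower in knockdown1, and 14 were higher and 0 lower in knockdown2, where 14.3% and 13.7% of all tested genes were called higher. These genes answer many growth signals, not FGF19 alone. DUSP5, a nuclear phosphatase of ERK, rose in both knockdowns (1.61 and 2.70, SE 0.17 for each, limma's adjusted p = 9.71e-09 and 1.04e-12). So did the early response genes FOS (1.69 and 2.38, SE 0.40 for each, limma's adjusted p = 0.00135 and 3.58e-05) and EGR1 (1.77 and 1.62, SE 0.25 for each, limma's adjusted p = 1.73e-06 and 9.31e-06). The mean FOS signal in control, 9.02, lay under the array median, so the size of its rise depends on the pseudocount. The cyclin D1 gene CCND1 fell in knockdown1 (-1.10, SE 0.17, limma's adjusted p = 7.86e-06) and rose in knockdown2 (0.68, SE 0.17, limma's adjusted p = 0.00285). A further CCND1 probe set gave -0.27 in knockdown1, not called (limma's adjusted p = 0.231 over all probe sets). In knockdown2 it gave 0.62 (limma's adjusted p = 0.00723). The CCND1 call in knockdown1 thus rests on its brightest probe set. The call of ETV5, lower in knockdown1 (-0.39, SE 0.14, limma's adjusted p = 0.0308), was lost with other scalings (limma's adjusted p up to 0.0668). With 3 other scalings 12 genes of the list were higher in knockdown1.

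In the peroxisome, where ACOX2 and AMACR act, 19 further genes were tested, and 5 were lower and 3 higher in knockdown1, and 6 lower and 1 higher in knockdown2. In knockdown1, where 19.0% of all tested genes were called lower and 14.3% higher, both counts lie near the share over all genes, and with 3 other scalings they were 6 and 5. In knockdown2 13.9% of all tested genes were called lower and 13.7% higher. CROT, which exports shortened acyl chains, fell in both (-1.98 and -1.11, SE 0.17 for each), although a dimmer CROT probe set gave 0.32 and 0.07. PECR, a peroxisomal reductase, fell in both (-1.24 and -0.99, SE 0.16 for each, limma's adjusted p = 4.20e-07 and 1.80e-05), as did catalase, CAT (-0.65 and -1.11, SE 0.13 for each, limma's adjusted p = 3.11e-04 and 2.50e-07). ABCD3, which carries bile acid precursors into peroxisomes, rose in both (1.31 and 1.41, SE 0.16 for each, limma's adjusted p = 1.62e-07 and 7.55e-08). PEX5, the import receptor for matrix proteins, rose in knockdown1 (0.79, SE 0.16, limma's adjusted p = 2.00e-04), and in knockdown2 its value was 0.22 (limma's adjusted p = 0.317). ACOX3, an oxidase related to ACOX2, was not called against control (0.46 and -0.21, limma's adjusted p = 0.0620 and 0.466).

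Among 9 tested reductases and steroid dehydrogenases related to AKR1D1 and AKR1C4, 4 were lower and 0 higher in knockdown1, and 4 were lower and 1 higher in knockdown2. All tested genes gave 19.0% and 13.9% called lower in turn, and 14.3% and 13.7% called higher. AKR1B10, an aldo-keto reductase abundant in liver tumours, fell in both (-1.63 and -2.02, SE 0.13 for each, limma's adjusted p = 9.54e-11 and 3.37e-12), as did HSD11B2, which inactivates cortisol (-1.48 and -1.75, SE 0.42 for each). The mean HSD11B2 signals in the knockdowns, 14.6 and 11.1, lay near the array median, so the size of its fall depends on the pseudocount. SRD5A1, a 5-alpha-reductase, rose in knockdown2 (0.69, SE 0.19, limma's adjusted p = 0.00680), and in knockdown1 its value was -0.27 (limma's adjusted p = 0.304). With quantile normalization 5 genes of this list were lower and 4 higher in knockdown2. Of 5 tested relatives of BAAT among acyl-CoA transferases and thioesterases, 0 were called in knockdown1 by limma (1, ACOT9, had an unadjusted p under 0.05), while GLYATL1 fell and ACOT9 rose in knockdown2 (-1.80, SE 0.41, and 0.83, SE 0.17). Their values in knockdown1 were -0.82 and 0.38 (limma's adjusted p = 0.135 and 0.0940). The mean GLYATL1 signal in knockdown2, 8.27, lay under the array median, so the size of its fall there depends on the pseudocount.

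Markers of other cell types were read beside these changes, and their part in them was not tested. The summed signal of 7 cholangiocyte markers was 1812 to 2679 in control, 3264 to 3922 in knockdown1 and 2156 to 2389 in knockdown2, and CFTR was under the array median on all arrays. Of the 6 tested, 3 were higher and 0 lower in knockdown1, and 1 was higher and 1 lower in knockdown2. The shares over all tested genes were 14.3% and 13.7% higher in turn, and 19.0% and 13.9% lower. KRT19 rose in both (2.46 and 2.09), while EPCAM was higher in knockdown1 (0.41, with overlapping arrays) and lower in knockdown2 (-1.02). For 7 fibroblast and stellate markers the sums were 478 to 545, 816 to 1039 and 804 to 1007 in turn. ACTA2 led them, with mean signals of 386, 799 and 761, while COL1A1 was not called. Of the 5 tested, 1 was higher in knockdown1 and 1, DCN, lower (-1.19, limma's adjusted p = 0.0389). In knockdown2 1 was higher and 0 lower. The 8 enterocyte markers, of the tissue that makes FGF19, summed to 739 to 979.7, 309 to 378 and 192 to 225, and 5 of them, SI, CDX1, CDX2, LCT and ALPI, were under the array median on all arrays. Only 2 were tested, and VIL1, a gene of the microvillus, made up most of the sum, with mean signals of 794, 279 and 162. The 7 measured leukocyte and endothelial markers summed to at most 119.6 in any array.

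The 2 other tested genes most like each member over the 9 arrays were found by the root mean square difference of their log2 values after centring each gene on its mean. For KLB they were SACM1L and DEPDC7 (0.08 and 0.09), for FGFR4 ERG28 and CMPK1 (0.06 for each), for ACOX2 ISOC1 and COQ10A (0.15 for each), and for AKR1D1 SLC2A9 and SLCO4C1 (0.17 and 0.20). The ranges of the 4 genes themselves over the arrays were 1.61, 1.12, 2.48 and 3.28 in turn. For the dim genes the nearest were farther off relative to their ranges, with HYAL3 and NOBOX for BAAT (0.29 and 0.34), TUBB4A and COL6A2 for AKR1C4 (0.27 and 0.31), and PITX1-AS1 and VWA5B2 for AMACR (0.18 and 0.19). Such nearness among 13056 genes is a description of 9 arrays and no more.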

How the data were processed

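Total RNA of HepG2 cells was hybridised to 9 oligonucleotide arrays. The deposited values are linear intensities of probe sets, made by the authors with MAS5, per the submitters' processing notes, which name no version. Each array's mean after trimming 2% at each end was close to 100. Detection calls were not used, the unit has no count or depth behind it, and dim probe sets scatter strongly.

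Array medians differed by 1.28 times (12.3 to 15.7), so each array was multiplied by 0.898 to 1.15 to reach a median of 14.1. Log2(signal + 1.41), a pseudocount of 0.1 of the median, understates the change of dim genes. Names came from the platform annotation, in which 41091 of 54675 probe sets had 1 symbol, 1801 several, 11721 none and 62 were controls. Probe sets above their array's median in at least 3 arrays were kept, and the brightest stood for a gene. One fit with limma 3.58.1 in R 4.3.3 (variance trend, 3 groups, two-sided) covered 13056 genes, and another 24565 probe sets, with Benjamini-Hochberg adjustment. It was tested on simulated data.

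The genes and lists were chosen with earlier results of these data known. Named were all 9 genes, HNF4G, the up to 2 largest called rises and falls of each list in each comparison, and the 2 genes nearest in pattern. Other genes are named to explain a value, after it was seen. Whether the replicate numbers pair the arrays is not settled. Over 9 pairs of same-numbered arrays the correlation of deviations from the group means ran from -0.02 to 0.13. Over 18 pairs with different numbers it ran from -0.12 to 0.09. Alternatives were other scalings, pseudocounts, filters, probe set rules, a fit without the trend, a replicate block, fits of 2 groups, and leaving out each array.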

Additional observations from a re-analysis of the deposited data

Results flagged for a closer look

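The results below stand out because knockdown1 and knockdown2, each compared with the same control arrays, differed from each other in limma's direct comparison (adjusted p under 0.05). All values are log2 differences, knockdown1 minus knockdown2, and no cause was tested. Among the 9 genes these were ACOX2 (-0.61) and the dimmer KLB probe set (0.49), while the brighter KLB probe set was not called. The other enzymes of bile acid synthesis were SLC27A5 (-1.16), ACAA1 (1.59) and CYP39A1 (0.40). A further ACAA1 probe set gave 0.60, called. Further CYP39A1 probe sets gave 0.55 and -0.11, neither called. In transport and sensing, SLC51B (-0.69), ABCC2 (-0.67) and FOXA2 (-0.59) were lower in knockdown1 and PPARA (0.59) was higher. Further PPARA probe sets gave -0.25, -0.04, -0.03, 0.03 and 0.64, none of them called.

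In signalling, SOS1 (-0.47), CCND1 (-1.79) and DUSP5 (-1.09) were lower in knockdown1, and STAT3 (0.67) was higher. Further SOS1 probe sets gave -0.48, -0.19, -0.13 and 0.12, none called. Those of STAT3 gave 0.51 and 0.83, both called, and -0.96, not called. In the peroxisome list CROT (-0.87) and PHYH (-0.71) were lower in knockdown1, and PEX2 (0.77) and ACOX3 (0.67) were higher. A dimmer CROT probe set gave 0.25 and a further one of ACOX3 0.71, neither called. Among reductases and acyl-CoA enzymes SRD5A1 (-0.96) and HSD17B11 (-0.62) were lower in knockdown1, and AKR1B10 (0.39) and ACOT13 (0.42) were higher.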

How the results depend on the processing

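The 4 genes called lower against control, ACOX2, AKR1D1, FGFR4 and KLB, stayed lower and called in both knockdowns under all 20 alternatives, leaving out each array included. Between knockdown1 and knockdown2 the count of called genes of the set was 2 in place of 1 with the values as deposited, with quantile normalization, with centring on the tested genes and with the mean of probe sets. The added gene was KLB, with 0.42, 0.46, 0.35 and 0.40 in turn (limma's adjusted p 0.00182, 7.95e-04, 0.0124 and 0.0401). The other single call that appeared was BAAT in knockdown1 with only the 2 groups compared. No value of the 7 genes lost a call or reversed a called direction. In the related lists 63 named gene and comparison pairs were checked under the 3 other scalings, and ETV5 alone lost its call. Other named comparisons, such as VDR in knockdown1, were not among them. With the values as deposited the sensing list had 4 genes lower in knockdown1, in place of 5. BAAT, AKR1C4 and AMACR gave no value with the filter at 2 times the median, which they did not pass. Leaving out 1 array moved the count of all genes called from 3585 to 4613 for knockdown1, 2802 to 4037 for knockdown2 and 2706 to 4171 between them. A weak pairing by replicate number is not excluded, and 5 of 9 arrays correlated best with their own number. With the replicate block the counts were 4996, 4265 and 4147 (4351, 3608 and 3473 without it), and the counts of the set were 4, 4 and 1, as without it. Signal near the array median limits BAAT, AKR1C4, AMACR and FGF19.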
